A study of Homo sapiens with 10 samples.

Results

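The 10 genes described here encode subunits of telomerase, the protein complex that caps chromosome ends, and a helicase that works there. The members are TERT, DKC1, NHP2, TERF1, TERF2, TERF2IP, TINF2, POT1, ACD and RTEL1, taken as the rows of the deposited count table whose Ensembl identifier belongs to these symbols. They are 10 of 61587 rows, and all 10 reached the minimum of 200 counts summed over the samples, as did 19006 genes in all, which were tested. Bulk RNA-seq was performed on RPTEC/TERT1 cells, a human renal proximal tubule epithelial line immortalised with a telomerase transgene. The irradiated group held 5 samples exposed to 10 Gy of gamma irradiation from a caesium source, and the control group held 5 samples taken to the irradiator without exposure. RNA was collected on day 7 in both groups, and replicates 1 to 5 were paired by number. Both groups carried the transgene, so no sample shows these cells without it, and the promoter that drives it is not given in the sources used here. The RNA came from a single line, and nothing says that the replicates were separate derivations of it, so p-values measure the spread between these cultures.

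Human chromosomes end in repeats of the hexamer TTAGGG, which shorten with each round of replication because the ends cannot be copied completely. Telomerase adds repeats back: TERT is its reverse transcriptase, the RNA TERC carries the template, and dyskerin, encoded by DKC1, binds and stabilises TERC together with NHP2. Shelterin hides the ends from the DNA damage machinery, with TERF1 and TERF2 on the double-stranded repeats, POT1 on the single-stranded overhang, and TINF2 and ACD joining these to each other. Most somatic epithelia keep TERT silent, which is why such lines are immortalised with it.

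Counts on genes summed to between 66269311 and 131555873 per sample, and members held between 2271 counts (RTEL1) and 456003 counts (TERT) over the 10 samples, so the spread between replicates set the precision for most of them. Epithelial markers (PAX8, CDH16, EPCAM, KRT8, KRT18 and KRT19) were abundant, with a summed level of 2866.8 to 3127.8 CPM (counts scaled to a common library size by the trimmed mean of M-values, TMM) in control samples and 2944.4 to 4088.3 in irradiated samples. Of these epithelial markers, CDH16 was called lower (log2 fold change -0.78) and KRT19 higher (0.69), while 4 were not called. Of the 8 proximal tubule markers, 5 were tested, while LRP2, HNF4A and SLC34A1 held 17, 12 and 86 counts in all and were close to absent. Among those tested, AQP1 was called lower (log2 fold change -0.61) and 4 were not called. Markers of other cell types were low beside the epithelial ones. Summed levels for fibroblasts were 15.8 to 23.4 CPM in control against 28.4 to 39.9 in irradiated samples, mostly from COL1A1 (means 18.8 and 32.2 CPM). They were 1.29 to 2.4 against 4.15 to 6.07 for endothelium, and 0.202 to 0.538 against 0.272 to 0.583 for leukocytes. Of the fibroblast markers, COL1A1 and DCN were called higher (log2 fold changes 0.78 and 2.36), while COL3A1, LUM and PDGFRB, with 4, 2 and 49 counts, were not tested. Of the endothelial markers, CDH5 and PECAM1 were called higher (2.48 and 0.72), VWF was not called and KDR held 2 counts, and the part of these cell types in the members' changes was not tested. Replicates 4 and 5 were the most alike in each group (chi-square per gene: controls 15.1, irradiated 8.5) and still differed beyond sampling noise. CDKN1A, the cell cycle inhibitor induced by DNA damage, rose from 101.9 ± 59.3 to 698.5 ± 69.0 CPM (SD, n = 5 per group). Control replicate 3 stood at 207.6 CPM, and the other controls, replicate 1 among them, at 66.7 to 80.9 CPM. The proliferation gene MKI67 fell from 161.6 ± 85.4 to 24.0 ± 5.32 CPM. Over 15 genes of cycling cells the mean log2 CPM was 4.64 and 4.61 in control replicates 1 and 3 but 5.86 to 5.91 in the other controls, and 3.68 to 4.17 in irradiated samples, so results are also given without replicates 1 and 3 where these change them.

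Irradiated cells held less TERT, POT1 and TERF2 transcript and more TERF2IP and TINF2 transcript than control cells, while the remaining members did not pass the test. The largest change was the fall of TERT, to 0.576 of the control level, and the other called changes were between 0.15 and 0.32 on the log2 scale. By edgeR's quasi-likelihood test with replicate number as a block and Benjamini-Hochberg adjustment over all genes tested, 5 of 10 members were called, 2 higher and 3 lower. In the same fit 46.6% of all genes tested were called, 23.9% higher and 22.7% lower, so the share of members called, 50.0%, was near that of the genome. The median log2 fold change of the members was -0.02, against -0.01 over all genes. The 2 higher and 3 lower calls were also found with scaling by library size only, where 38.0% of all calls were higher in place of 51.4%. Between 4 and 6 members were called over the alternatives tried, with 4 called without the replicate block (36.9% of all genes) and 6 without replicates 1 and 3 (47.0% of all genes). In bulk samples, fewer cells expressing a gene and less RNA per cell cannot be told apart.

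**Figure D1:**
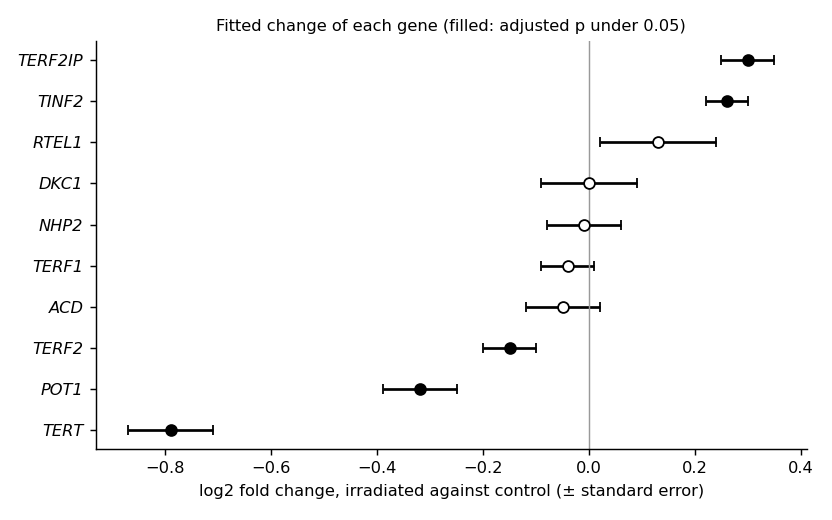
Log2 fold change of each gene, irradiated against control (x axis), with bars of ± 1 standard error from the fit over 5 pairs; filled points passed an adjusted p of 0.05. TERF2IP and TINF2 lie to the right of 0, TERF2, POT1 and TERT to the left, and TERT at -0.79 is far from the rest.

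TERT lies on the minus strand of chromosome 5 (1253147 to 1295068, GRCh38). Its row counts reads of the transgene and of the resident gene together, and these cannot be told apart. TERT stood at 405.9, 702.2, 468.7, 733.5 and 509.3 CPM in control replicates 1 to 5 and at 281.9, 403.2, 284.9, 336.8 and 291.3 CPM in the irradiated samples of the same numbers. Every irradiated sample was below its paired control, and the groups did not overlap, although the highest irradiated sample lay only just under the lowest control. Groups that did not overlap were found for 26.7% of all genes tested. The mean fell from 563.9 ± 145.7 to 319.6 ± 51.7 CPM, a log2 fold change of -0.79 (SE 0.08, adjusted p = 0.000225, edgeR). Of the 19006 genes tested, 1105 had a lower fold change. TERT was called in 13 of 13 alternatives, at log2 fold changes between -0.93 and -0.71. Expressed as a share of all counts on genes, TERT made up 0.0425% to 0.0761% of control libraries and 0.0261% to 0.0407% of irradiated libraries. For a gene that is silent in most epithelia this is a high level: per kilobase of exon TERT ranked 266 of 18969 genes in control cells and 594 in irradiated cells.

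**Figure D2:**
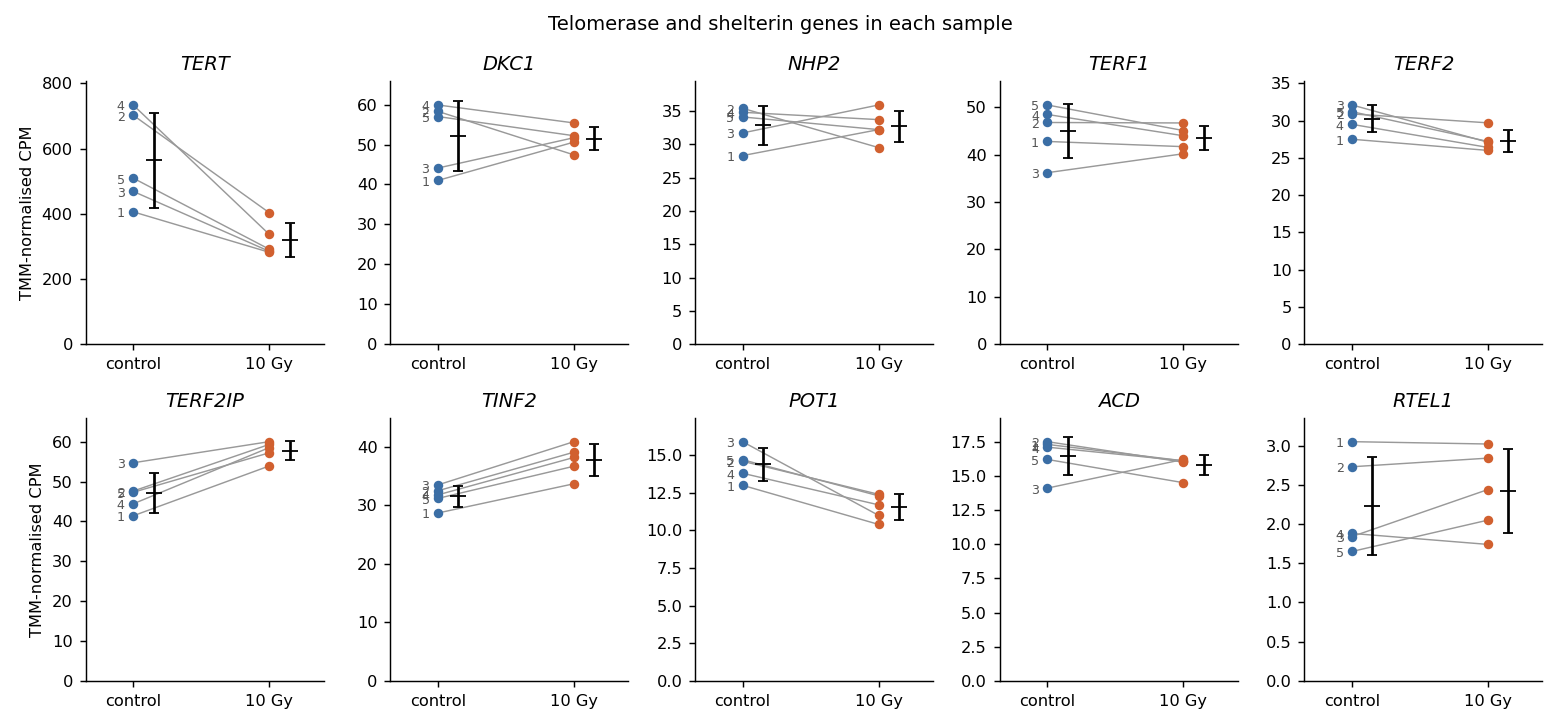
TMM-normalised CPM (y axes, each from 0) of the 10 genes in control samples and in samples given 10 Gy; points are samples, grey lines join samples of the same replicate number, printed beside the control point, and bars give the mean ± SD of 5. All lines of TERT, TERF2 and POT1 slope down and all lines of TERF2IP and TINF2 slope up, while those of DKC1, NHP2 and RTEL1 cross.

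The RNA partner of TERT could not be measured in these libraries. TERC, which lacks a poly-A tail in its mature form, held 29 counts over the 10 poly-A enriched samples and was not tested. The stretch of TERC that the enzyme copies is taken from the reference annotation (chr3:169764985-169765035, minus strand, GRCh38, bases 26 to 76 of 541), because it is the part that the TERT protein reads, with the 11 template bases that pair with the telomere repeat in capitals.
TERC template region: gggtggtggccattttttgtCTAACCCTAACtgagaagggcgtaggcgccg

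DKC1 and NHP2, whose proteins hold TERC and also serve the H/ACA class of small nucleolar RNAs that guide pseudouridylation of ribosomal RNA, did not follow TERT. DKC1 (chromosome X, 154762742 to 154777689, plus strand) stood at 41.0, 58.3, 44.1, 59.9 and 57.0 CPM in control replicates 1 to 5 and at 50.6, 47.4, 51.7, 55.4 and 52.2 CPM in irradiated samples. Controls 1 and 3 were the lowest of all 10 samples and the other controls the highest, so that the irradiated samples lay between them. The group means were 52.1 ± 8.78 and 51.5 ± 2.89 CPM, with a log2 fold change of 0.00 (SE 0.09, adjusted p = 0.988, edgeR). Without replicates 1 and 3, DKC1 was called lower, at -0.20 (SE 0.05, adjusted p = 0.0201, edgeR on 3 pairs). NHP2 (chromosome 5, 178149463 to 178153894, minus strand) stood at 28.3, 35.4, 31.7, 34.8 and 34.1 CPM in control and 32.2, 29.5, 35.9, 33.7 and 32.2 CPM in irradiated samples. The groups overlapped throughout, and only 2 of 5 pairs were higher after irradiation (log2 fold change -0.01, SE 0.07, adjusted p = 0.954, edgeR). Exons of RMND5B on the opposite strand cover 28.0% of the exonic bases of NHP2, and reads falling in such shared bases were lost in the authors' counting.

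Ratios of counts within a library do not depend on how libraries are scaled. The log2 ratio of TERT to DKC1 fell from 3.42 ± 0.19 to 2.62 ± 0.27 and that of TERT to NHP2 from 4.07 ± 0.26 to 3.28 ± 0.30, each lower in 5 of 5 pairs. Both differences were -0.79 (exact two-sided permutation test, p = 0.00794, the smallest that 5 against 5 samples allow, adjusted p = 0.0119 over 3 ratios). The ratio of DKC1 to NHP2 was 0.65 ± 0.13 in control and 0.66 ± 0.08 in irradiated samples (exact permutation p = 0.976). Among controls, DKC1, NHP2 and TERT were each lowest in replicates 1 and 3, the samples with the low level of cycling genes. Whether cycling contributed to the fall of TERT was not tested. Within pairs 1 and 3 the cycling mean also fell, though least (4.64 to 3.99 and 4.61 to 4.17 log2 CPM). In these pairs MKI67 went from 76.7 to 26.2 and from 60.4 to 25.4 CPM, and TERT from 405.9 to 281.9 and from 468.7 to 284.9 CPM. Without these pairs the fall of TERT was larger, at -0.93 (SE 0.07, adjusted p = 0.000166, edgeR).

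**Figure D3:**
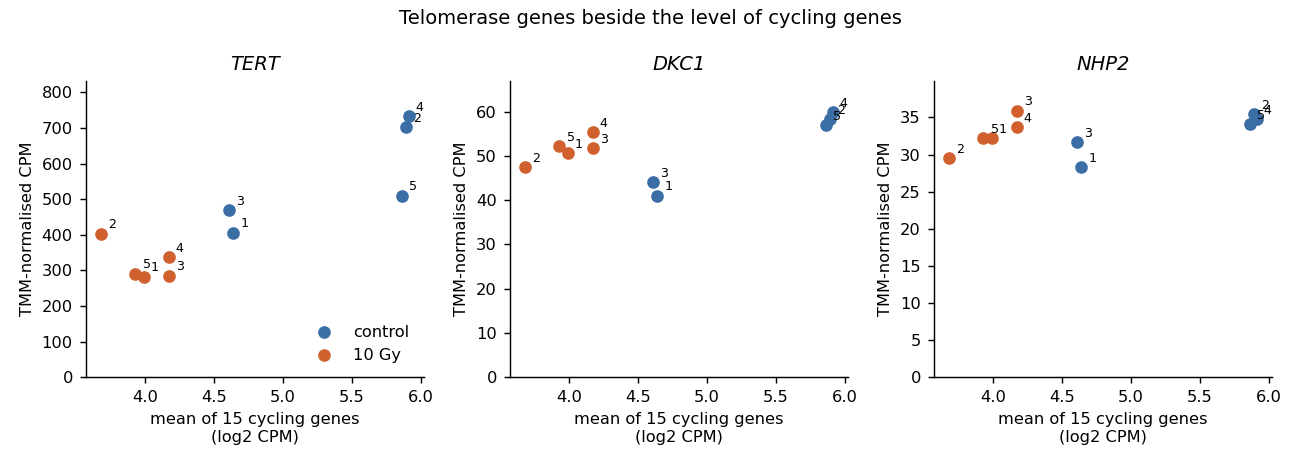
TMM-normalised CPM of TERT, DKC1 and NHP2 (y axes, from 0) against the mean log2 CPM of 15 cycling genes (x axis) in each control sample and each sample given 10 Gy, numbered by replicate. The controls form separate clusters, at 4.61 to 4.64 and at 5.86 to 5.91, and irradiated TERT lies under both, while irradiated DKC1 and NHP2 lie within the range of the controls or just beside it.

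Of the genes of the 6 shelterin proteins, TERF2 and POT1 were called lower, TERF2IP and TINF2 were called higher, and TERF1 and ACD were not called. TERF1, which binds the double-stranded repeat and limits telomere lengthening, stood at 42.8, 46.8, 36.2, 48.5 and 50.5 CPM in control and 41.7, 46.7, 40.2, 44.0 and 45.1 CPM in irradiated samples. The irradiated values lay inside the range of the controls (log2 fold change -0.04, SE 0.05, adjusted p = 0.597, edgeR). Processed copies of TERF1 could share its reads, and the most abundant of those annotated held 314 counts against 43927 for TERF1 itself. These counts cannot show how many TERF1 reads were lost by matching a copy as well. TERF2 (chromosome 16, 69355567 to 69408571, minus strand), which folds the chromosome end into a loop and blocks signalling by the kinase ATM, stood at 27.5, 30.9, 32.1, 29.5 and 31.2 CPM in control replicates 1 to 5 and at 26.0, 29.7, 27.1, 26.4 and 27.2 CPM in irradiated samples. Each irradiated sample was below its own control, but the groups overlapped through irradiated replicate 2, which was above controls 1 and 4. The mean fell from 30.3 ± 1.81 to 27.3 ± 1.42 CPM (log2 fold change -0.15, SE 0.05, adjusted p = 0.0324, edgeR). This call was lost in 5 of 13 alternatives, with an adjusted p of 0.069 without the replicate block (edgeR), 0.0521 when all genes with at least 1 count were tested, and 0.054, 0.104 and 0.125 without replicates 3, 4 and 5.

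TERF2IP (chromosome 16, 75647773 to 75761872, plus strand) encodes RAP1, which is brought to telomeres by TERF2 and also acts in NF-κB signalling. It stood at 41.4, 47.6, 54.7, 44.4 and 47.3 CPM in control replicates 1 to 5 and at 53.9, 59.3, 60.0, 58.5 and 57.2 CPM in irradiated samples. All 5 pairs rose, and the groups touched only through control 3, which was higher than irradiated replicate 1. The mean rose from 47.1 ± 4.94 to 57.8 ± 2.42 CPM (log2 fold change 0.30, SE 0.05, adjusted p = 0.00202, edgeR). TINF2 (chromosome 14, 24238286 to 24242663, minus strand) encodes TIN2, the hub that binds TERF1, TERF2 and ACD. It stood at 28.7, 32.5, 33.5, 31.8 and 31.2 CPM in control and 33.7, 39.1, 40.9, 38.2 and 36.7 CPM in irradiated samples. The lowest irradiated sample was just above the highest control, and all 5 pairs rose. The mean rose from 31.5 ± 1.82 to 37.7 ± 2.71 CPM (log2 fold change 0.26, SE 0.04, adjusted p = 0.00133, edgeR). Exons of genes on the opposite strand, chiefly GMPR2, cover 27.9% of the exonic bases of TINF2, and GMPR2 itself moved the other way (log2 fold change -0.22, SE 0.05, adjusted p = 0.00751, edgeR). For TERF2IP the shared part was 3.98%, with KARS1, which did not pass the test (log2 fold change 0.09, adjusted p = 0.253, edgeR).

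POT1 (chromosome 7, 124822386 to 124929983, minus strand), which covers the single-stranded overhang and keeps the kinase ATR from it, moved in the other direction. It stood at 13.0, 14.6, 15.9, 13.8 and 14.7 CPM in control replicates 1 to 5 and at 10.4, 12.4, 11.0, 11.7 and 12.3 CPM in irradiated samples. All 5 pairs fell and the groups did not overlap. The mean fell from 14.4 ± 1.09 to 11.6 ± 0.871 CPM (log2 fold change -0.32, SE 0.07, adjusted p = 0.00612, edgeR). ACD (chromosome 16, 67657512 to 67660810, minus strand), which encodes TPP1, the partner of POT1 that also recruits telomerase, was not called. ACD stood at 17.3, 17.5, 14.1, 17.1 and 16.2 CPM in control and 16.1, 16.0, 16.2, 16.1 and 14.5 CPM in irradiated samples (log2 fold change -0.05, SE 0.07, adjusted p = 0.534, edgeR). The lowest control was replicate 3 and the lowest irradiated sample was replicate 5, and apart from these the irradiated values were at or slightly under the lowest controls. The log2 ratio of POT1 to ACD was lower in 5 of 5 pairs (difference -0.26), but the groups overlapped and it missed the threshold (exact permutation, adjusted p = 0.0866 over 15 ratios). TERF2IP, TINF2 and POT1 were each called in 13 of 13 alternatives.

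Sequence upstream of the 3 shelterin genes called in every alternative is shown because TERF2IP and TINF2 rose while POT1 fell. The stretches come from RefSeq's gene starts (GRCh38.p14) and hold the parts of the 250 bases before each start that lie outside protein-coding exons: chr16:75647666-75647772 (plus strand) for TERF2IP, chr14:24242675-24242924 (minus strand) for TINF2 and chr7:124929984-124930075 (minus strand) for POT1, whose stretch covers bases -250 to -159. Capitals mark the GC box GGGCGG, the CCAAT box CCAAT and the E-box CACGTG, searched on both strands.
TERF2IP: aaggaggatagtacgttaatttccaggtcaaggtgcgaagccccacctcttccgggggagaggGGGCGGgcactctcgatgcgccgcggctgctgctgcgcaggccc
TINF2: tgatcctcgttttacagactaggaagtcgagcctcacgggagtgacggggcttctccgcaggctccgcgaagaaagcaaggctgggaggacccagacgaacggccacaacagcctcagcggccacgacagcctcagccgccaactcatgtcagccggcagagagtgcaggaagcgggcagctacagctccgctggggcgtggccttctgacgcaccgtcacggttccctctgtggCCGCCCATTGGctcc
POT1: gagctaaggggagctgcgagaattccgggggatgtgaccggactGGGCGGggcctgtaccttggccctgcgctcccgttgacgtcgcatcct
Each stretch held a GC box, TINF2 also held a CCAAT box next to it, both on the strand opposite to the printed one, and none held the E-box. Over 35116 promoter windows of the same 250 bases, 42.6% held a GC box, 32.0% a CCAAT box and 6.34% the E-box. In the shorter windows cut as for TERF2IP and POT1, a GC box was found in 32.3% and 15.9%. The GC box was thus shared by genes that moved in opposite directions, and a match says nothing of binding.

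Of the 15 count ratios between the 6 shelterin genes, 6 were called. How often ratios of other gene pairs shift was not measured. Of all single genes tested, 46.6% were called (edgeR) and 26.7% had groups that did not overlap. These are other measures than a ratio test, so whether shifted ratios are particular to shelterin is not known. Ratios of TERF2IP and TINF2 to POT1 rose, while the ratios of TERF2 to TERF2IP and TINF2 fell, and the ratio of TERF2IP to TINF2 differed by less than could be shown. The log2 ratio of TERF2IP to POT1 went from 1.71 ± 0.04 in control to 2.32 ± 0.09 in irradiated samples, a 1.53-fold rise, and that of TINF2 to POT1 from 1.13 ± 0.05 to 1.70 ± 0.12, a 1.49-fold rise. These were the widest shifts among the 15 pairs of the 6 genes. Relative to POT1, TERF1 rose 1.21-fold (1.64 ± 0.26 to 1.91 ± 0.05) and TERF2 rose 1.12-fold (1.07 ± 0.03 to 1.24 ± 0.08). The ratio of TERF2 to the protein it recruits, TERF2IP, fell to 0.732 of control (-0.63 ± 0.08 to -1.08 ± 0.07), and its ratio to TINF2 fell to 0.754 (-0.06 ± 0.04 to -0.47 ± 0.09). In each of these 6 ratios the groups did not overlap and all 5 pairs moved the same way (exact two-sided permutation p = 0.00794, adjusted p = 0.0198 over the 15 ratios, which share genes). The ratio of TERF2IP to TINF2 was 0.57 ± 0.09 in control and 0.62 ± 0.05 in irradiated samples (exact permutation, adjusted p = 0.397), and that of TERF1 to ACD 1.45 ± 0.13 and 1.46 ± 0.13 (exact permutation, adjusted p = 0.825). TINF2 to ACD was higher in 5 of 5 pairs, with a difference of 0.31, and missed the threshold (exact permutation, adjusted p = 0.051). With the pairs kept together in an exact sign-flip test the smallest p is 0.0625, so that none of the 15 could pass, and the same holds for the ratios of TERT. With 1 replicate left out the smallest p is 0.0286, which passes after adjustment only where 9 or more ratios reach it, so counts of calls at that size (0 of 15 without replicate 1, 2, 4 or 5, and 11 without replicate 3) do not bear on stability. The difference for TERF2IP to POT1 stayed between 0.60 and 0.64 with any replicate left out, while that for TERF1 to POT1, 0.28 over all samples, was 0.17 without replicate 3.

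**Figure D4:**
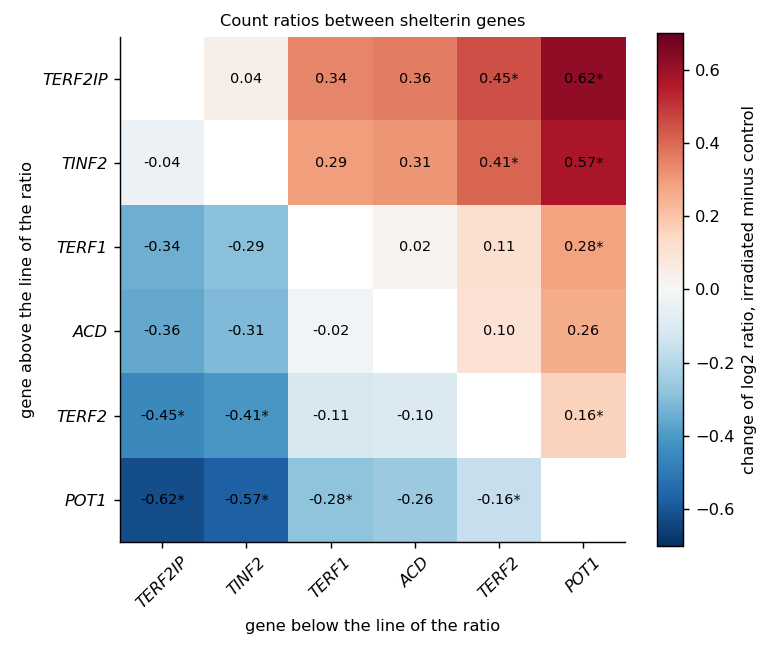
Change of the within-sample log2 count ratio between shelterin genes, irradiated minus control (colour and printed value), for the gene named on the left over the gene named at the bottom; stars mark an adjusted p under 0.05. The upper right corner, TERF2IP and TINF2 over POT1, holds the largest values at 0.62 and 0.57, and the cell for TERF2IP over TINF2 is nearly white at 0.04.

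RTEL1 (chromosome 20, 63657810 to 63696253, plus strand), a helicase that unwinds the telomere loop and G-quadruplexes during replication, was the least abundant member. It stood at 3.05, 2.73, 1.84, 1.88 and 1.65 CPM in control replicates 1 to 5 and at 3.02, 2.84, 2.44, 1.74 and 2.05 CPM in irradiated samples. Replicates 1 and 2 were highest in both groups (log2 fold change 0.13, SE 0.11, adjusted p = 0.355, edgeR). The annotated readthrough gene RTEL1-TNFRSF6B shares 52.9% of the exonic bases of RTEL1, so reads in the shared part were counted for neither, and the RTEL1 value rests on the rest. The readthrough row went from 2.57 ± 0.73 to 3.23 ± 1.16 CPM and was higher in 5 of 5 pairs (log2 fold change 0.30, SE 0.10, adjusted p = 0.0442, edgeR).

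Levels of different genes were compared per kilobase of exon, using the union of all annotated exons. In control cells TERT led at 95.3 ± 24.6 CPM per kilobase, followed by NHP2 at 22.3 ± 1.99, TERF2IP at 10.6 ± 1.12, TINF2 at 7.21 ± 0.415, DKC1 at 5.66 ± 0.955, TERF2 at 5.37 ± 0.322, ACD at 5.11 ± 0.435, TERF1 at 2.86 ± 0.361, POT1 at 1.65 ± 0.125 and RTEL1 at 0.261 ± 0.0723. In irradiated cells the order was the same except that ACD (4.91 ± 0.224) and TERF2 (4.84 ± 0.253) changed places. The ranges of DKC1 and TERF2 and of TERF2 and ACD overlapped in control cells, and those of ACD and TERF2 overlapped in irradiated cells, so these neighbours have no order. All other neighbours were separate in all 5 samples of a group. TERT stood 4.28-fold above NHP2 in control cells and 2.44-fold above it after irradiation, where it was at 54.0 ± 8.74 against 22.1 ± 1.59 CPM per kilobase. The transcripts in use are not known from gene counts, and the middle of the order depended on the length used: with the length of the MANE Select transcript, DKC1 (21.1 ± 3.56 CPM per kilobase in control cells) stood beside TERF2IP (22.1 ± 2.32) and TERF1 (13.5 ± 1.70) above TERF2 and ACD, whose range it still touched. TERT and NHP2 at the top and POT1 and RTEL1 at the bottom kept their places.

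The genes whose levels most resembled TERT over the 10 samples were VDR, the receptor for vitamin D (Pearson r = 0.98 of log2 CPM), FKBP5, a chaperone induced by glucocorticoid (r = 0.964), and ACER3, an alkaline ceramidase (r = 0.962). These are descriptions over samples that share the group difference and the replicate numbers. All of them were lower after irradiation, VDR from 36.1 to 21.5 CPM (log2 fold change -0.72, SE 0.09) and FKBP5 from 21.8 to 10.7 CPM (log2 fold change -1.01, SE 0.09). MKI67 gave r = 0.866. After subtraction of the group means the leading genes were CDH13-AS2 (r = 0.985), RELN (r = 0.95) and again VDR (r = 0.935), and MKI67 gave 0.512. Unlike TERT, CDH13-AS2 and RELN were called higher after irradiation (log2 fold changes 0.68 and 1.18, adjusted p = 0.0191 and 0.00165, edgeR). Their group means were only 0.167 to 0.374 CPM, so only VDR was both well expressed and near the top by either measure. The named genes other than MKI67 were picked as the most correlated, so their r values are high by selection.

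Of 13 genes of telomerase RNA biogenesis 12 were tested, of which 2 were higher, 1 was lower and 9 were not called, with a median log2 fold change of -0.02. Without replicate 4, 1 was called in all, where 35.7% of all genes were called. Without replicates 1 and 3, 5 were called, where 47.0% of all genes were called. The share called over all samples was 25.0%, against 46.6% of all genes tested, and this difference was not tested. NOP10, a further subunit of the dyskerin complex, rose from 43.3 ± 3.58 to 47.4 ± 4.30 CPM (log2 fold change 0.13, SE 0.04, adjusted p = 0.0265, edgeR). PARN, the deadenylase that matures TERC, rose from 33.4 ± 1.96 to 37.6 ± 1.48 CPM (log2 fold change 0.17, SE 0.04, adjusted p = 0.00974, edgeR). NAF1, which assembles dyskerin particles and is then replaced, fell from 13.0 ± 0.949 to 11.2 ± 0.619 CPM (log2 fold change -0.21, SE 0.07, adjusted p = 0.0476, edgeR). Of 4 proteins of the box C/D class of nucleolar particles, which methylate rather than pseudouridylate RNA, FBL alone was called (25.0%). FBL fell by 0.42 on the log2 scale from 90.9 ± 9.02 to 68.0 ± 3.15 CPM (adjusted p = 0.000243, edgeR).

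The CST complex and primase belong to the machinery that fills in the complementary strand after telomerase. Of 7 genes of the CST complex and primase 6 were tested, with 2 higher, 2 lower and a median log2 fold change of -0.06. TEN1, with 77 counts, was not tested. The share called was 66.7%, against 46.6% of all genes tested, and this difference was not tested. Without replicate 4 or without replicate 5, 2 genes of this list were called, where 35.7% and 35.9% of all genes were called. STN1, a CST subunit, rose from 21.0 ± 3.18 to 30.7 ± 2.68 CPM without overlap (log2 fold change 0.56, SE 0.06, adjusted p = 0.000373, edgeR), and its partner CTC1 rose from 31.3 ± 4.20 to 35.8 ± 2.23 CPM (log2 fold change 0.20, SE 0.06, adjusted p = 0.0185, edgeR). The primase subunit PRIM1 fell from 2.23 ± 0.888 to 0.782 ± 0.102 CPM (log2 fold change -1.42, SE 0.21, adjusted p = 0.00109, edgeR) and the polymerase subunit POLA1 from 18.6 ± 5.37 to 12.5 ± 1.13 CPM (log2 fold change -0.52, SE 0.15, adjusted p = 0.0253, edgeR). Their partner subunits PRIM2 (0.28, adjusted p = 0.243) and POLA2 (-0.33, adjusted p = 0.22, edgeR) were not called.

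Of 11 genes that process and replicate chromosome ends, 6 were lower and 0 higher (median log2 fold change -0.22). This was a share of 54.5%, against 46.6% of all genes tested (23.9% higher, 22.7% lower), and the difference was not tested. Without replicate 4 or without replicate 5, 3 were called, where 35.7% and 35.9% of all genes were called. PIF1, a helicase that removes telomerase from ends, fell from 7.02 ± 2.59 to 1.68 ± 0.281 CPM (log2 fold change -1.97), the nuclease EXO1 from 6.33 ± 3.59 to 1.49 ± 0.291 CPM (-1.86) and the helicase BLM from 4.46 ± 2.32 to 1.75 ± 0.346 CPM (-1.18), with adjusted p of 0.000853, 0.00603 and 0.0175 (edgeR). Of 7 genes of telomere chromatin 1 was higher and 2 were lower, a share called of 42.9%. The histone chaperone paralogs moved apart, ASF1A rising from 14.0 ± 1.75 to 17.2 ± 0.671 CPM (log2 fold change 0.30, adjusted p = 0.0104, edgeR) and ASF1B falling from 20.8 ± 9.23 to 4.69 ± 0.728 CPM (log2 fold change -2.03, adjusted p = 0.00112, edgeR). SMCHD1, a chromatin protein found at telomeres, fell from 60.6 ± 3.83 to 45.1 ± 4.17 CPM (log2 fold change -0.43, adjusted p = 0.000699, edgeR). Of 8 genes of damage signalling at ends, RAD50 was higher (log2 fold change 0.21, adjusted p = 0.0488) and TP53BP1 (-0.24, adjusted p = 0.00259) and MRE11 (-0.14, adjusted p = 0.048, edgeR) were lower, while the kinases ATM (0.12) and ATR (-0.01) and 3 more were not called. The share called in this list was 37.5%. Without replicate 4 or without replicate 5, only 1 gene of this list was called. The cycling genes, given for comparison, were lower in 13 of 15, with a median log2 fold change of -1.23, and their part in the falls of the replication genes was not tested.

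**Figure D5:**
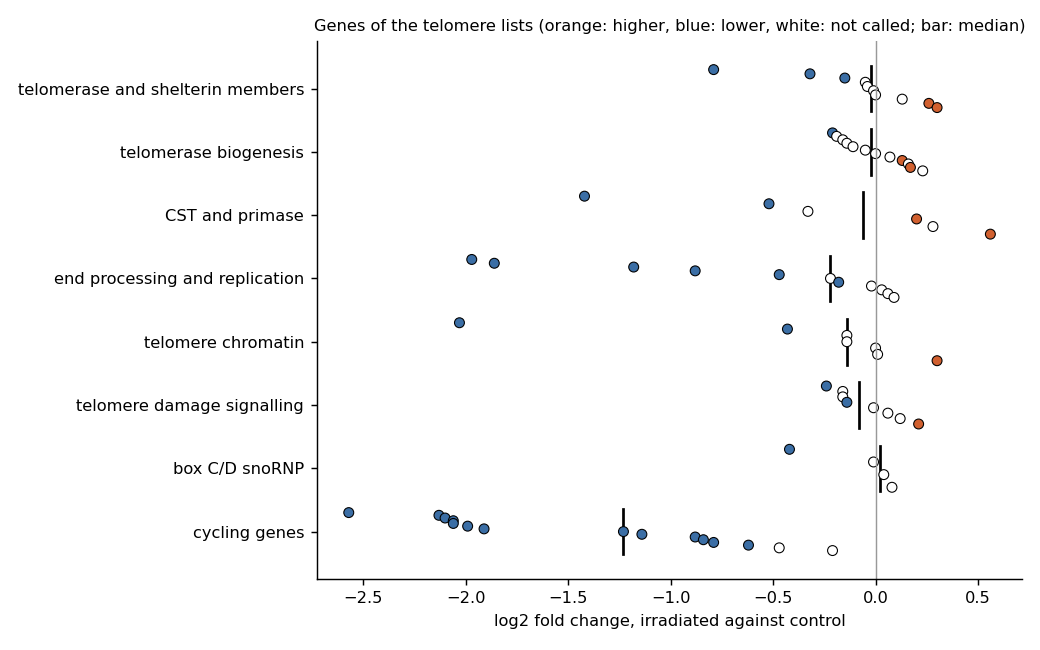
Log2 fold change, irradiated against control (x axis), of each tested gene of the telomerase and shelterin members and of 7 further lists; orange points were called higher, blue lower, white not called, and bars mark list medians. The members and telomerase biogenesis genes centre near 0 at -0.02, while cycling genes centre at -1.23 and the 6 called genes of end processing lie between -1.97 and -0.18.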

How the data were processed

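Bulk RNA-seq was measured in 5 control and 5 irradiated samples, all read as RPTEC/TERT1 although the cell line label counts upwards over the samples. After adapter trimming (Trim-Galore), STAR was used by the authors for alignment to GRCh38 and for counting reads per gene, and the deposited values are raw counts (library kit named differently in the labels and the methods). Of genes wholly under exons of the opposite strand, 17 of 17 protein-coding genes and 97.9% of 425 long non-coding RNA genes were at 0, so the counts were treated as unstranded, with shared reads lost. Members were matched by identifier, and coordinates and exon lengths were taken from GENCODE 44. Counts were fitted in edgeR 4.0.16 (R 4.3.3) (glmQLFit, glmQLFTest, TMM normalisation) for genes reaching 200 counts in all, with replicate number as a block, Benjamini-Hochberg adjustment and a threshold of 0.05. The count minimum and the replicate term follow the methods of the study, which used DESeq2. The standard error is the log2 fold change divided by the root of the F statistic. Numbers paired the samples, since deviations from group means correlated at 0.22 to 0.51 within numbers and at -0.35 to 0.32 between them. Ratios of counts plus 0.5 were tested by exact permutation of 252 splits. Alternatives were DESeq2 1.42.0, limma-voom (limma 3.58.1), other scalings and filters, no block and left-out replicates, and the MANE Select length was added after seeing the data. In simulated data with 200 changed genes and 1 dispersion for all genes, the test recovered 82.8% of genes changed by 0.5 on the log2 scale and 100.0% of those changed by 1. Changes under 0.5, such as those of the called members other than TERT, were not simulated, so their recovery is not known. Named genes were all members, up to 3 called rises and 3 falls of each list, untested list genes, CDKN1A, MKI67 and the 3 genes most correlated with TERT by each measure. Partner genes sharing exons, cell type markers and some uncalled list genes were added. Members and lists were chosen with earlier results of these data known.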

Additional observations from a re-analysis of the deposited data

Results flagged for a closer look

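ACD in irradiated replicate 5 stood at 14.5 CPM, apart from the other irradiated samples at 16.0 to 16.2 CPM, a gap wide enough to pass Dixon's test for groups of 5. It was 1 of 34 groups of samples tested, of which chance alone would flag about 1.7.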

How the results depend on the processing

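TERT, POT1, TERF2IP and TINF2 kept their direction and call in 13 of 13 alternatives. The number of members called was 5, and 4 without the replicate block, which removed TERF2, while the calls of all genes went from 8857 to 7006. None of the called members and ratios changed direction. Calls among telomerase biogenesis genes went from 3 to 5 with library size only or without replicates 1 and 3, where 50.0% and 47.0% of all genes were called. They went to between 1 and 4 when single replicates were left out, where 35.7% to 47.2% of all genes were called. Damage signalling calls went from 3 to 1 with DESeq2 or a minimum of 1 count, where 43.9% and 21.5% of all genes were called. They went to between 1 and 2 with single replicates left out. Without single replicates, CST and primase calls ranged from 2 to 5 (main 4) and end processing calls from 3 to 7 (main 6). The lowest were found without replicate 4 or 5, where the share of all genes called went from 46.6% to 35.7% and 35.9%. Box C/D calls went from 1 to 2 without replicates 1 and 3. The 6 shelterin ratios called became 0 in the sign-flip test with the replicate block (smallest p 0.0625), 0 without replicates 1 and 3 (smallest p 0.1) and 0 to 11 with single replicates left out (smallest p 0.0286), the 11 without replicate 3. The losses follow from those smallest p-values, since the 6 differences kept their direction. The mean ratio of TERT to NHP2 per kilobase in control samples, 4.24, was 3.10 with shared bases removed and 3.28 with MANE Select lengths. Transgene and resident TERT cannot be told apart, and TERC was below measurement.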
